A study of Arabidopsis thaliana with 72 samples.

Results

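PGY1 (PIGGYBACK1, locus AT2G27530) and AT5G02870 are genes for proteins of the large subunit of the cytosolic ribosome, and they are the 2 genes described here, of 13513 for which the ATH1 array has a probe set with 1 gene name. Each was found as the single probe set that the array annotation pairs with that gene alone, and both were read in all 24 groups of the study. The study ran 72 arrays on roots and shoots of 10-day-old Arabidopsis thaliana plants of the accession Wassilewskija, kept in pressure chambers under constant light for 1, 3, 6, 12, 48 or 72 h, with 3 arrays for each tissue, pressure and time. The first condition was 10 kPa total pressure with 2.1 kPa oxygen, and the control was 97 kPa with 21 kPa oxygen. Carbon dioxide was 0.05 kPa in both, so that total pressure and oxygen changed together. Each replicate was a separate chamber and 1 tube of about 12 pooled plants in RNAlater, later divided into roots and shoots. Both a root and a shoot array came from 29 tubes. The remaining arrays, all of 48 h at 97 kPa or of 72 h, came from tubes with an array of 1 tissue only.

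The cytosolic ribosome reads messenger RNA and joins amino acids into protein. Its small subunit decodes the message, and its large subunit forms the peptide bond. Plants carry several near-identical gene copies for most ribosomal proteins, and growing tissue holds large amounts of their transcripts. By general knowledge, PGY1 encodes protein L10a, which belongs to a mobile stalk of the large subunit beside the site where used tRNA leaves. The gene is known for leaf defects: loss of PGY1 worsens the abnormal upper and lower leaf sides of plants that lack the leaf polarity regulator AS1. AT5G02870 encodes protein L4, part of which lines the tunnel through which the new peptide leaves. Plants keep the balance between growth and energy use partly through how much of this machinery they make, and low oxygen limits the energy that respiration can give.

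Values are the authors' linear signals, scaled so that the trimmed mean of each array is 500. A log2 change is the mean log2 signal at 10 kPa minus the mean at 97 kPa, with its standard error (SE) from the limma fit. "Rose", "fell" and "called" stand for an adjusted p-value below 0.05 (Benjamini-Hochberg over all probe sets tested). The p-values rest on the spread between 3 separate chambers a group. In the main fit of both tissues, root and shoot arrays of the same tube counted as independent. The tube was set as a random block in an alternative fit. Array numbers followed pressure in runs, so that number run and pressure cannot be told apart, except for 4 arrays of 72 h, 1 of each tissue and pressure, that were numbered apart. As a check of the exposure, all 23 core low-oxygen genes with a probe set rose in 10 kPa roots at 1 h (median log2 change 3.8), and 16 of them rose in 10 kPa shoots (median 1.99). At 72 h 11 rose and 0 fell in roots, and 5 rose and 9 fell in shoots. Of all probe sets at 72 h, 3.53% rose and 4.63% fell in roots, and 9.33% rose and 10.5% fell in shoots. The low-oxygen genes' median log2 signal in 97 kPa shoots averaged 7.66 at 1 h and 9.32 at 72 h. In 10 kPa shoots it averaged 9.48 and 9.09. In roots it was 8.34 and 9.30 at 97 kPa, and 11.99 and 11.25 at 10 kPa. The counts at 72 h are thus read against a control that was itself higher than at 1 h. Tissue labels held: all 9 shoot marker genes were lower in roots than in shoots at 97 kPa (median log2 difference -4.67), and all 7 root marker genes were higher (median 3.74). The summed signal of the shoot markers was 3320 to 23696 in root arrays, against 126740 to 214925 in shoot arrays, so root arrays held some signal of those genes.

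In roots, PGY1 was lowest relative to its control at the first time point. At 1 h its signal was 10253, 9380 and 10191 in 10 kPa roots, against 14081, 14998 and 14179 in 97 kPa roots. All 3 low-pressure arrays lay below all 3 control arrays, a separation seen in that direction for 13.6% of all probe sets tested. The log2 change was -0.54 (SE 0.15, limma adjusted p = 0.0313), which is -31.1% in signal, and 1.43% of all probe sets were called lower and 2.13% higher at this time. The call did not hold when any 1 of the 6 arrays was left out (limma adjusted p from 0.0665 to 0.140), nor with quantile normalization (log2 change -0.38, adjusted p = 0.0642), with no filter on low values (0.0527) or with no trend in the variance (0.0653). It held without the 48 and 72 h arrays in the fit (adjusted p = 0.00978).

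After 1 h, PGY1 was not called in roots at any single time. At 3 h, 3.43% of all probe sets were called lower and 2.57% higher. At 3 h it had 12292, 15212 and 13023 in 10 kPa roots, against 11641, 13464 and 14191 in 97 kPa roots. At 6 h it had 14428, 12947 and 10486 in 10 kPa roots, against 14882, 13303 and 13375 in 97 kPa roots. At 12 h it had 15467, 12630 and 11220 in 10 kPa roots, against 14525, 14386 and 15592 in 97 kPa roots. The groups overlapped at each of these times, and the log2 changes were 0.04, -0.14 and -0.19 (SE 0.15 each). At 48 h the signal was 10579, 9524 and 7832 in 10 kPa roots, against 10641, 10489 and 7652 in 97 kPa roots. At 72 h it was 9573, 9161 and 6782 in 10 kPa roots, against 9365, 8760 and 9221 in 97 kPa roots. Both late pairs overlapped again, with log2 changes of -0.04 and -0.12. The 95% intervals all included 0, with the most negative at 12 h, from -0.49 to 0.11, and the least negative at 3 h, from -0.26 to 0.34.

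AT5G02870 was lower in 10 kPa roots at 6 and 12 h. At 6 h its signal was 8254, 7652 and 7098 in 10 kPa roots, against 11542, 9657 and 11099 in 97 kPa roots. The groups did not overlap, as for 15.1% of all probe sets in that direction, and the change was -0.49 (SE 0.12, limma adjusted p = 0.00664). At this time 4.6% of all probe sets were called lower. At 12 h it had 6624, 7352 and 6377 in 10 kPa roots, against 10849, 11438 and 9844 in 97 kPa roots. This was its largest fall, -0.66 (SE 0.12, limma adjusted p = 0.000191), which is -36.6% in signal, again with no overlap, as for 18% of all probe sets in that direction. At 12 h, 6.35% of all probe sets were called lower. Both calls held in all 18 alternative settings of each, with changes of -0.56 to -0.43 at 6 h and of -0.72 to -0.52 at 12 h.

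At the other times the root signal of AT5G02870 was below the control on average but not called. At 1 h it had 9492, 7949 and 9500 in 10 kPa roots, against 11732, 10831 and 10370 in 97 kPa roots. The groups did not overlap, as for 13.6% of all probe sets in that direction. The log2 change of -0.29 (SE 0.12) had a limma adjusted p of 0.218. At 3 h it had 9237, 10772 and 9136 in 10 kPa roots, against 10599, 10778 and 11008 in 97 kPa roots. Here the groups overlapped by 1 array, and the log2 change was -0.16. At 48 h it had 4682, 4613 and 5113 in 10 kPa roots, against 6341, 5901 and 5818 in 97 kPa roots. These groups did not overlap, as for 14.4% of all probe sets in that direction. The log2 change was -0.33 (limma adjusted p = 0.0752), and it was called with quantile normalization alone (-0.45, adjusted p = 0.00786). At 72 h it had 5208, 5671 and 5332 in 10 kPa roots, against 6988, 4795 and 5646 in 97 kPa roots, which overlapped, with a log2 change of -0.09. The 2 root arrays of 72 h that were numbered apart had 5671 at 10 kPa and 4795 at 97 kPa, a difference of 0.24 in the other direction, with no replicate.

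**Figure D1:**
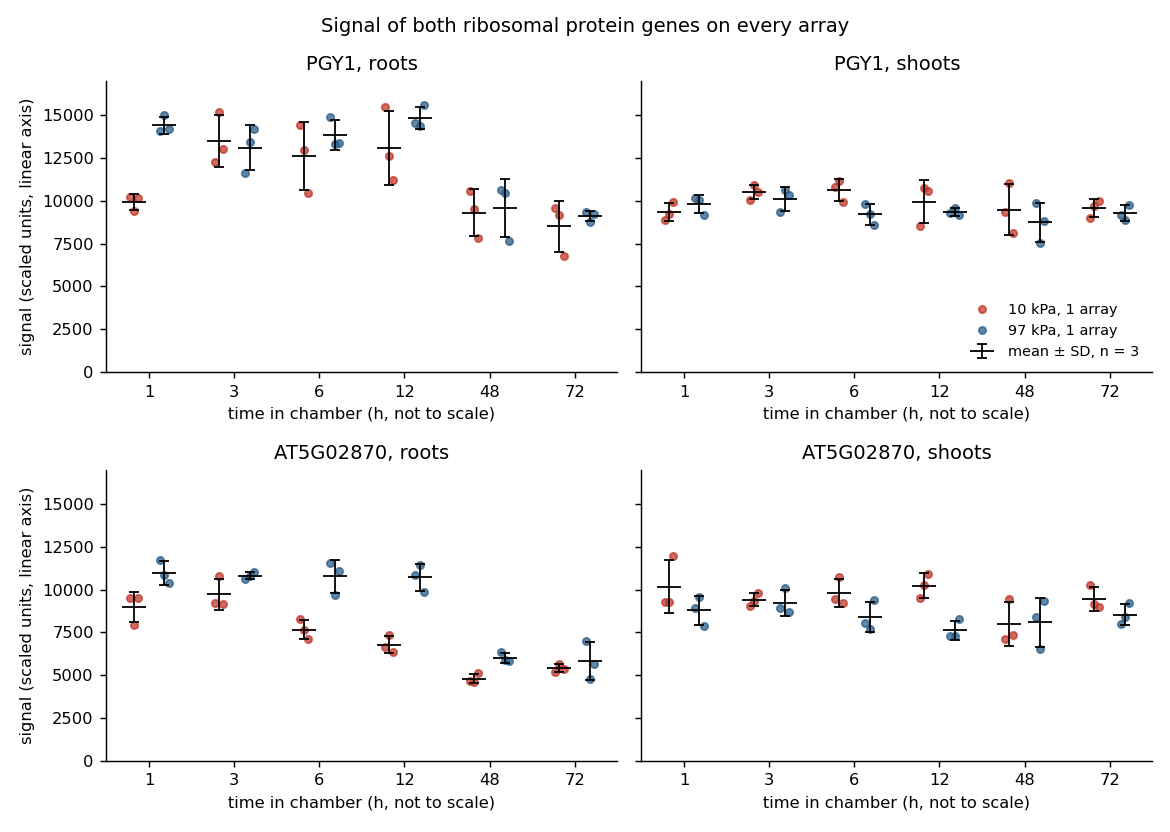
Signal of PGY1 (top) and AT5G02870 (bottom) in roots (left) and shoots (right), on a linear scale, against time in the chamber. Each point is 1 array, red at 10 kPa and blue at 97 kPa, and black bars are mean ± SD of 3. Red root points lie below blue ones without overlap for PGY1 at 1 h, and for AT5G02870 at 1, 6, 12 and 48 h. At 97 kPa the 48 and 72 h root points of both genes lie below those of the earlier times. At 10 kPa the same is seen for AT5G02870, whereas the PGY1 points overlap.

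Averaged over the 6 times, both genes were lower in 10 kPa roots. PGY1 had 6782, 10533 and 15467 as its lowest, median and highest signal over 18 arrays at 10 kPa, against 7652, 13420 and 15592 over 18 arrays at 97 kPa. Its mean log2 change was -0.16 (SE 0.06, limma adjusted p = 0.0355), where 18.2% of all probe sets were called lower and 13.1% higher. That call was lost in 13 of 36 fits without 1 array (adjusted p up to 0.0679, without 10 kPa replicate 3 of 6 h), at least 1 of them at each of the 6 times, with each array centred on its median (-0.09, adjusted p = 0.336), with no filter, with no variance trend and with the 3′ to 5′ ratio as a covariate. AT5G02870 had 4613, 7225 and 10772 at 10 kPa, against 4795, 10484 and 11732 at 97 kPa. Its mean log2 change was -0.33 (SE 0.05, limma adjusted p = 1.41e-06), and it was called in all 47 alternatives, at -0.40 to -0.26.

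Other measures are set beside these root values. The shoot marker sum was 5723 to 11475 in 10 kPa roots at 12 h, against 5130 to 5673 in 97 kPa roots. At 1 h it was 5242 to 8290 against 4575 to 6852, which overlapped. At 3 h it was lower at 10 kPa, 3320 to 5083 against 5561 to 5974. At 48 h it was higher at 10 kPa, 13524 to 23696 against 5300 to 13457, with no overlap. The 3′ to 5′ ratio of the GAPDH control probe sets rises as RNA breaks or labelling stops short. It was 58.9 to 116 in 10 kPa roots at 12 h, against 100 to 170 in 97 kPa roots, which overlapped. The groups also overlapped at 1, 6 and 72 h. The GAPDH ratio was lower at 10 kPa without overlap at 3 h, 62.9 to 89.4 against 138 to 179. The same was seen at 48 h, 92.2 to 187 against 191 to 354. With the mean log2 ratio of the plant control genes in the model, AT5G02870 changed by -0.67 at 12 h (limma adjusted p = 0.000199) and PGY1 by -0.54 at 1 h (adjusted p = 0.0338). Without it the values were -0.66 and -0.54. At 1 h that log2 ratio averaged 5.26 in 10 kPa roots and 5.24 in 97 kPa roots, so the covariate could change the PGY1 value little. The part of the shoot markers in these results was not tested. In whole organs, fewer cells that express a gene and less RNA per cell cannot be told apart.

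In shoots, PGY1 was nearly level. Its 12 group means lay between 8737 ± 1167 (97 kPa, 48 h) and 10637 ± 633 (10 kPa, 6 h; SD, n = 3 each). At 6 h it had 10831, 11151 and 9930 in 10 kPa shoots, against 9839, 9212 and 8618 in 97 kPa shoots. The groups did not overlap, as for 17% of all probe sets in that direction, but the log2 change of 0.21 (SE 0.11, limma adjusted p = 0.282) was not called. At 1, 3, 12, 48 and 72 h the log2 changes were -0.07 to 0.12, with overlapping groups. Over the 6 times the mean change was 0.07 (95% interval -0.02 to 0.17, limma adjusted p = 0.225), so a rise of more than 0.17 on the log2 scale lies outside the interval.

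AT5G02870 was higher in 10 kPa shoots at 12 h, the time of its largest fall in roots. It had 9488, 10275 and 10921 in 10 kPa shoots, against 7296, 7293 and 8274 in 97 kPa shoots. The groups did not overlap, as for 13.9% of all probe sets in that direction. The log2 change was 0.42 (SE 0.13, limma adjusted p = 0.039), 34.2% in signal, where 3.82% of all probe sets were called higher and 3.59% lower. The call was lost in 4 of 6 fits without 1 array, those without replicate 2 or 3 at 10 kPa or replicate 1 or 2 at 97 kPa (adjusted p up to 0.146), and also with arrays centred on their medians (0.0555), with no filter (0.0646) and with no variance trend (0.0612).

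At the other times AT5G02870 was not called in shoots, and the groups overlapped. At 1 h it had 9282, 9272 and 11964 in 10 kPa shoots, against 8906, 9590 and 7889 in 97 kPa shoots. At 6 h it had 9454, 10721 and 9231 in 10 kPa shoots, against 8045, 7726 and 9403 in 97 kPa shoots. The log2 changes were 0.20 and 0.23 (SE 0.13 each), and they were 0.03, -0.02 and 0.15 at 3, 48 and 72 h. Averaged over the 6 times, the gene was higher in 10 kPa shoots by 0.17 (SE 0.05, limma adjusted p = 0.0114), where 18.6% of all probe sets were called higher. With quantile normalization the mean was 0.13 and not called (adjusted p = 0.0779). The 3′ to 5′ ratio of GAPDH was 36.1 to 147 in 10 kPa shoots at 48 and 72 h, against 10.1 to 25.4 in 97 kPa shoots. With the ratio of the control genes in the model, the mean change was 0.29 (adjusted p = 0.0113).

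**Figure D2:**
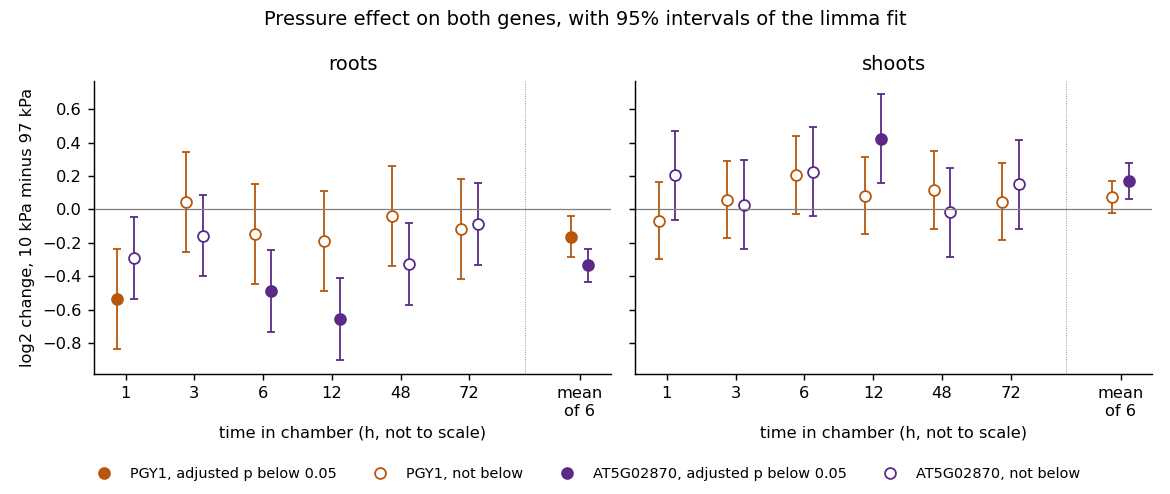
Log2 change of PGY1 (orange) and AT5G02870 (purple), 10 kPa minus 97 kPa, at each time and as the mean of 6 times, in roots (left) and shoots (right). Bars are 95% intervals of the limma fit and filled points have an adjusted p below 0.05. In roots the filled points are PGY1 at 1 h and AT5G02870 at 6 and 12 h, besides both means. In shoots they are AT5G02870 at 12 h and its mean.

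The pressure effect itself differed between the tissues. For AT5G02870 the mean effect was -0.33 in roots and 0.17 in shoots, and the root minus shoot difference was -0.50 (SE 0.07, limma adjusted p = 6.79e-08). It was called in all 84 alternatives. For PGY1 the effects were -0.16 in roots and 0.07 in shoots, with a difference of -0.24 (SE 0.07, adjusted p = 0.0133). That difference was not called with arrays centred on their medians (-0.17, adjusted p = 0.132). Of all probe sets, 14.7% were called lower for this difference. Late minus early contrasts, the effect at 48 and 72 h less that at 1 and 3 h, were not called for either gene in either tissue. They were 0.17 for PGY1 and 0.02 for AT5G02870 in roots, with SEs of 0.15 and 0.12.

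The genes also differed from each other in their change in roots. Within each array the log2 signal of AT5G02870 was subtracted from that of PGY1, which removes any scaling of the whole array. This difference was 0.17 higher in 10 kPa roots than in 97 kPa roots over 18 arrays each (permutation test within times, two-sided, p = 0.0247). By time it was -0.24 at 1 h, 0.20 at 3 h, 0.34 at 6 h, 0.47 at 12 h, 0.29 at 48 h and -0.03 at 72 h. The change of PGY1 was the higher at 4 of 6 times and the lower at 1 and 72 h. Leaving out 97 kPa replicate 1 or 10 kPa replicate 1 of 72 h took the permutation p above 0.05 (0.0526 at most). In shoots the difference was -0.10 (permutation p = 0.0715), and p fell below 0.05 in 4 of 36 analyses without 1 array.

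Time in the chamber changed both genes in control roots. The mean of 48 and 72 h was set against the mean of 1 and 3 h at 97 kPa. PGY1 fell, with a change of -0.56 (SE 0.10, limma adjusted p = 0.00013), with 7652 to 10641 at the late times against 11641 to 14998 at the early times. AT5G02870 fell, with a change of -0.89 (SE 0.09, adjusted p = 2.84e-09), with 4795 to 6988 against 10370 to 11732. Neither gene's late and early arrays overlapped, and both calls held in all 21 alternatives. The share of all probe sets separated in this way was not computed. For this contrast 12.6% of all probe sets were called lower. In 10 kPa roots AT5G02870 showed the same separation, with 4613 to 5671 at 48 and 72 h against 7949 to 10772 at 1 and 3 h, whereas PGY1 overlapped, with 6782 to 10579 against 9380 to 15212. In control shoots the same contrast was -0.15 for PGY1 (adjusted p = 0.194) and -0.12 for AT5G02870 (adjusted p = 0.374), where 11.1% of all probe sets were called lower and 11.4% higher. Neither was called, except that both were with arrays centred on their medians (-0.32, adjusted p = 0.00871, and -0.29, adjusted p = 0.0275).

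Other values also moved with time in control roots. In the same late minus early contrast, limma called 13 of 23 low-oxygen genes higher and 0 lower (median 0.62). For all probe sets the share called higher was 11.5%. Any link between those genes and the fall of the members was not tested. The mean shoot marker sum was 8415 and 14325 at 48 and 72 h, against 5690 and 5763 at 1 and 3 h. The mean GAPDH 3′ to 5′ ratio was 272 and 694, against 94.8 and 164. With the ratio of the control genes in the model, the changes were -0.56 for PGY1 (adjusted p = 0.00756) and -0.84 for AT5G02870 (adjusted p = 9.98e-06). The array numbers of the 1 and 3 h controls form a run apart from those of 48 and 72 h. The control roots of 6 and 12 h shared a run with all the late ones except 72 h replicate 2. Within that run AT5G02870 had 5646 to 6988 at 48 and 72 h, against 9657 to 11542 at 6 and 12 h, and PGY1 had 7652 to 10641, against 13303 to 15592. These earlier times are not those of the contrast above, and the part of the number run in the fall with time was not tested.

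Ordered by level, PGY1 root means ran from 8506 ± 1507 (10 kPa, 72 h) to 14834 ± 660 (97 kPa, 12 h), a 1.74-fold range over the 12 root groups. Of the 11 pairs of neighbours in that order, 10 had overlapping ranges. The means of AT5G02870 ran from 4802 ± 271 (10 kPa, 48 h) to 10978 ± 693 (97 kPa, 1 h) in roots, a 2.29-fold range with 9 of 11 neighbouring pairs overlapping. In shoots the ranges were 1.22-fold for PGY1 and 1.34-fold for AT5G02870, and all 11 neighbouring pairs of either gene overlapped. Over all 24 groups, each gene was lowest in a 10 kPa root group of 48 or 72 h. For AT5G02870 the 4 lowest means were the 4 root groups of 48 and 72 h and the 4 highest were the 97 kPa roots of 1, 3, 6 and 12 h. The 12 shoot groups lay between these, together with the 10 kPa roots of 1, 3, 6 and 12 h. This order across tissues is that of the authors' scaling, and the tissue levels depended on scaling, as described next.

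The difference in level between tissues depended on the scaling. The median of all probe sets tested was 0.34 higher in roots than in shoots at 97 kPa and 0.30 higher at 10 kPa, on the log2 scale, and the members' values are read against that. At 97 kPa PGY1 was 0.38 higher in roots (SE 0.05, limma adjusted p = 3.6e-09), close to the shift of all probe sets, and 53% of all probe sets were called higher and 26.8% lower. With arrays centred on their medians the value was 0.02 and not called. AT5G02870 was 0.07 higher (adjusted p = 0.188), below the shift, and turned to -0.29 (adjusted p = 5.37e-06) with arrays centred on their medians. At 10 kPa PGY1 was 0.14 higher in roots (adjusted p = 0.0127) and turned to -0.16 with arrays centred on their medians, and it was not called with the 3′ to 5′ ratio in the model (0.26, adjusted p = 0.0909). AT5G02870 was lower in roots at 10 kPa by -0.43 (adjusted p = 1.12e-11). The value was -0.23 with quantile normalization and -0.73 with arrays centred on their medians, and with the 3′ to 5′ ratio in the model it was -0.21 and not called (adjusted p = 0.141). At 10 kPa 27.8% of all probe sets were called lower and 50.8% higher.

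The other genes of the cytosolic ribosome place these values. A list of 226 such genes, written from general knowledge, had 132 with a probe set of their own, of which 122 passed the filter on low values in roots and 119 in shoots. In roots at 1 h, 24 of 122 fell, none rose (1 at an unadjusted p under 0.05, against 78 lower), and 120 had a negative change, where 1.43% of all probe sets fell. The count that fell was 14 with quantile normalization, 12 with no variance trend, 46 without the 48 and 72 h arrays and 55 with the 6 arrays of 1 h alone. It was 4 to 8 when any 1 of those 6 arrays was left out of the fit. The list's median was -0.40 (all probe sets: -0.02). PGY1, at -0.54, was the 29th lowest of the 122, and AT5G02870, at -0.29, the 92nd. At 3 h in roots no gene of the list was called by limma, 4 being higher and 5 lower at an unadjusted p under 0.05, and the median was 0.11.

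AT5G02870 stood among the lower genes of the list at 6 and 12 h in roots, where PGY1 was near the middle. At 6 h 16 of the 122 fell and 1 rose, with a median of -0.18, where 4.6% of all probe sets were called lower and 4.59% higher. AT5G02870 ranked 18th from the lowest and PGY1 74th. At 12 h 29 fell and 1 rose, with a median of -0.24 (all probe sets: -0.07), where 6.35% of all probe sets were called lower and 5.66% higher. AT5G02870 ranked 13th and PGY1 71st. With arrays centred on their medians the counts of genes that fell were 9 at 6 h and 11 at 12 h. Leaving out 1 array gave 8 to 15 at 6 h, and 9 to 29 at 12 h. The single gene that rose at both times was AT2G16360 of the small subunit, at 1.10 and 1.65, and the most negative change among those that fell was that of AT4G25890 of the large subunit, at -1.06 and -1.43.

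At 48 h in roots 1 gene of the list fell and 6 rose, where 6.18% of all probe sets were called lower and 5.33% higher. At 72 h 4 fell and 1 rose, where 4.63% were called lower and 3.53% higher. Leaving out 1 array gave 1 to 7 genes that rose at 48 h and 1 to 7 that fell at 72 h. Over the 6 times 52 of the 122 fell, 3 rose and 67 were not called, with a median of -0.16, equal to the mean change of PGY1. Of all probe sets, 18.2% were called lower and 13.1% higher. AT5G02870 ranked 16th from the lowest and PGY1 61st. The fallen genes were 32 of 77 in the large and 20 of 45 in the small subunit. With arrays centred on their medians 33 fell.

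In shoots the list moved the other way. Over the 6 times 83 of the 119 tested rose and 2 fell, with a median of 0.22 (all probe sets: 0.01). Of all probe sets, 18.6% were called higher and 17.6% lower. AT5G02870, at 0.17, was the 45th lowest of the 119, and PGY1, at 0.07, the 21st, so that both rose less than most of the list or were not called. At 1 h 1 gene rose and at 3 h 11, where 2.27% and 2.54% of all probe sets were called higher and 2.1% and 2.86% lower, and neither member was among them. At 6 h 51 rose and none fell (none at an unadjusted p under 0.05 either), with a median of 0.36, where 5.78% of all probe sets were called higher and 5.92% lower. PGY1 ranked 28th and AT5G02870 35th from the lowest. At 12 h 5 rose (4.20%) and 0 fell, close to the 3.82% of all probe sets called higher, where 3.59% were called lower. AT5G02870 was among the genes that rose, as the 109th of 119, while the median was 0.20. At 48 and 72 h 48 and 42 rose, where 10.4% and 9.33% of all probe sets were called higher and 13.4% and 10.5% lower. Leaving out 1 array gave 3 to 11 genes that rose at 3 h, 27 to 47 at 6 h, 1 to 5 at 12 h, 28 to 66 at 48 h and 26 to 40 at 72 h, and 77 to 92 over the 6 times. With the 3′ to 5′ ratio in the model 0 and 7 rose at 48 and 72 h, and 41 over the 6 times.

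**Figure D3:**
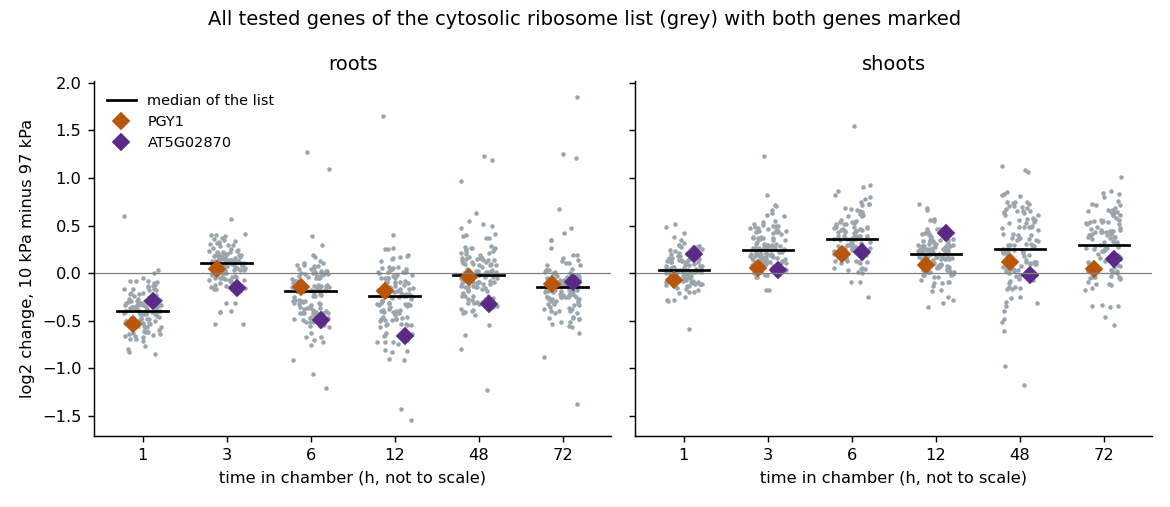
Log2 change, 10 kPa minus 97 kPa, of each tested cytosolic ribosomal gene (grey, 122 in roots on the left and 119 in shoots on the right) at each time, with the list's median as a black line. Diamonds mark PGY1 (orange) and AT5G02870 (purple). In roots AT5G02870 lies below the median from 3 to 48 h and PGY1 lies near it except at 1 h. In shoots both lie below the median at 3, 6, 48 and 72 h.

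Of the 119 list genes tested in both tissues, 98 had a mean change below 0 in roots and above 0 in shoots, both members among them. For the root minus shoot difference of the effect, 90 of 123 were lower and 1 was higher, with a median of -0.39. Of all probe sets, 14.7% were called lower and 11.1% higher. AT5G02870, at -0.50, was the 37th lowest of the 123. PGY1, at -0.24, was the 90th. For the late minus early contrast in 97 kPa roots, 76 of 122 fell and 4 rose, with a median of -0.43. Here 12.6% of all probe sets were called lower and 11.5% higher. AT5G02870 ranked 15th and PGY1 43rd from the lowest.

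**Figure D4:**
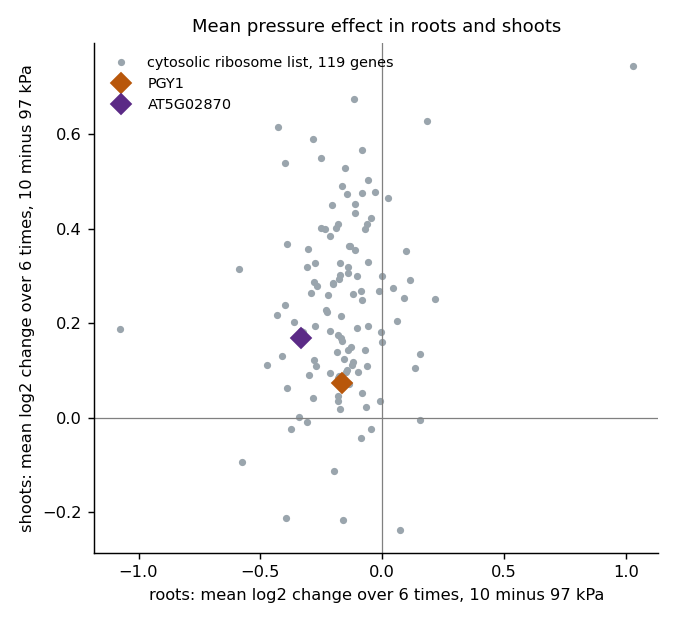
Mean log2 change over 6 times, 10 kPa minus 97 kPa, in roots (x axis) against shoots (y axis) for 119 cytosolic ribosomal genes, with PGY1 (orange) and AT5G02870 (purple) as diamonds. In all, 98 genes lie to the upper left, below 0 in roots and above 0 in shoots. AT5G02870 is farther to the left than PGY1.

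Other gene copies of the same protein families were also measured. The near-identical copies may share probe sequences, which was not analysed here, so the split between copies is uncertain. In the L10a family, AT5G22440 had the most negative mean change in roots, -0.43 (SE 0.10, limma adjusted p = 0.000923), while AT1G08360 had -0.09 (adjusted p = 0.253). At 12 h AT5G22440 averaged 4751 ± 1446 in 10 kPa roots, against 8669 ± 252 in 97 kPa roots (SD, n = 3 each), a change of -0.91 (adjusted p = 0.0102), where PGY1 had -0.19. In shoots AT1G08360 rose by 0.27 (adjusted p = 7.78e-06) and AT5G22440 by 0.22 (adjusted p = 0.00823), against 0.07 for PGY1. Differences between copies were not tested. All 3 copies had a negative root minus shoot difference of the effect, -0.65 for AT5G22440, -0.36 for AT1G08360 and -0.24 for PGY1, and each was called.

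The other L4 gene with a probe set, AT3G09630, had values close to those of AT5G02870 in roots. Its mean change was -0.30 (SE 0.07, limma adjusted p = 0.000583), and it fell at 6 h (-0.54, adjusted p = 0.0307) and at 12 h (-0.55, adjusted p = 0.0228), the same times as AT5G02870. At 12 h it averaged 5342 ± 94 in 10 kPa roots, against 7815 ± 556 in 97 kPa roots. In shoots its mean change was 0.09 (adjusted p = 0.229). Its fall with time in 97 kPa roots was -1.0, against -0.89 for AT5G02870.

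**Figure D5:**
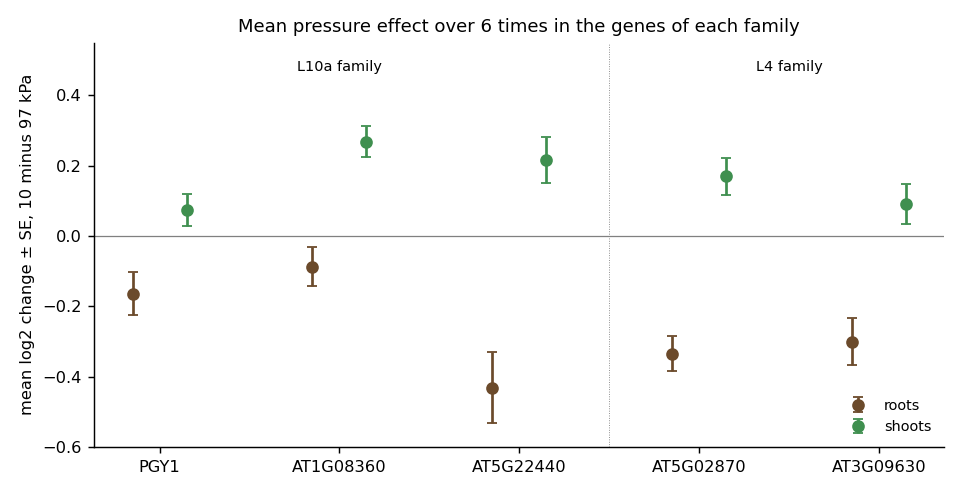
Mean log2 change over 6 times, 10 kPa minus 97 kPa, with the SE of the fit as bars, for the genes of the L10a family (left of the dotted line) and of the L4 family (right), in roots (brown) and shoots (green). All root points lie below 0 and all shoot points above 0, with the lowest root point for AT5G22440 at -0.43.

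Over the 24 group means, after each tissue's mean was subtracted, the pattern of PGY1 was most like that of AT1G27400 (Pearson r = 0.96), AT3G49910 (0.95), AT4G17390 (0.94), AT3G05560 (0.94) and AT4G16720 (0.93). All 5 are on the ribosome list, and 48 of the 100 most alike of 10004 genes were, where 121 of the 10004 were on the list. AT5G02870 was most like AT3G09630 (0.96), AT5G20890 (0.95), AT3G04840 (0.95), AT5G22440 (0.95) and AT1G15470 (0.95). Of these, 3 are on the list, as were 26 of its 100 most alike. The members correlated with each other at r = 0.83. These values describe 24 points that share arrays, scaling and time order, and carry no test.

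Within groups the members varied together among chambers in shoots more than in roots, a contrast that was not tested. In shoots the deviations from the group means had r = 0.55 and rho = 0.52 over 36 arrays (permutation p = 0.0219 and 0.0123, adjusted over 4 relations 0.0876 and 0.0493), and r = 0.53 without the 2 arrays farthest from the median. In roots r was 0.28 and rho 0.32 (permutation p = 0.0604 and 0.0805, adjusted over 4 relations 0.121 and 0.161), and r was 0.05 with quantile normalization. Both signals of a pair come from the same array, so scaling is shared. Root and shoot of the same tube showed no detectable relation over 29 tubes, with r = 0.13 and rho = 0.18 for PGY1 (permutation p = 0.652 and 0.482) and r = 0.05 and rho = 0.19 for AT5G02870 (permutation p = 0.825 and 0.382). Adjusted over 4 relations, these were 0.825 and 0.482 for either gene. Without the 2 farthest tubes r was 0.44 for PGY1 and near 0 for AT5G02870.

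Other lists around the ribosome held few probe sets. Of 17 ribosome biogenesis genes, which help to build the subunits, 4 rose and 4 fell in 10 kPa roots over the 6 times (23.5% each, median -0.05), where 13.1% of all probe sets rose and 18.2% fell. In 10 kPa shoots 11 of them rose (64.7%, median 0.27), where 18.6% of all probe sets rose. Of 6 translation factors 1 rose and 1 fell in roots, and 2 rose in shoots. Of 13 leaf polarity genes listed, PGY1 and 1 other had a probe set, and the other was not called for either mean effect. The 1 gene of the TOR and S6 kinase list with a probe set was not called for either mean effect. Promoter motifs and protein sequences of the members were not analysed here.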

How the data were processed

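RNA from roots and shoots was measured on 72 ATH1 arrays. Per the submitters' processing notes, the deposited signal intensity values, on a linear scale, come from the MAS5 algorithm in Affymetrix Expression Console, as run by the authors. Their versions are not given here. The table holds 22810 probe sets, 64 of them controls. A pseudocount of 8.90, the 10th percentile over the whole table, was added before log2. A probe set was tested if 3 or more arrays had it at or above their own 40th percentile: 16667 in roots, 15794 in shoots and 17901 in both tissues together. The model of group means used limma 3.58.1 under R 4.3.3, with 1 fit for each tissue and 1 for both, with eBayes and a variance trend; tests were two-sided with Benjamini-Hochberg adjustment. Single relations used 100000 permutations within groups or times. The procedure was tested on simulated data.

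Genes were named by a rule: both members, genes of the ribosome list, and the 5 genes most alike in pattern to each member. The members and the lists were chosen with earlier results of these data known, and the lists come from general knowledge. The annotation names 1 gene for 13513 probe sets, several for 503 and none for 8794; of the first, 13436 matched the reference gene table of the TAIR10.1 assembly. Arrays have no read depth, so their number, 3 a group, limits the precision. For the control pressure the labels hold 2 values, 101 kPa in the descriptions and 97 kPa elsewhere. Replicate numbers did not pair the samples: over 36 pairs the correlation of same-numbered arrays' deviations was -0.05 to 0.09, with none above 0.1. The alternatives are in the closing section.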

Additional observations from a re-analysis of the deposited data

Results flagged for a closer look

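The mean pressure effect differed between roots and shoots for both genes by the test of the difference itself. For AT5G02870 the root minus shoot difference was -0.50 on the log2 scale (limma adjusted p = 6.79e-08), with an effect of -0.33 in roots and 0.17 in shoots. For PGY1 it was -0.24 (limma adjusted p = 0.0133), with -0.16 in roots and 0.07 in shoots. The PGY1 difference was not called with arrays centred on their medians (-0.17, limma adjusted p = 0.132). With 3 arrays in each group, no search for outlying arrays was made.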

How the results depend on the processing

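For 46 results on the members, 1414 values came from alternatives; 1328 kept direction and side of the threshold, 41 lost a call, 9 gained one and 36 turned sign. Where a result changed, the cause was not tested. Leaving out the 48 and 72 h arrays and leaving out arrays from the within-array difference were chosen after seeing the data. All values are log2. Quantile normalization gave, in roots, -0.38 for PGY1 at 1 h, -0.0060 at 3 h, -0.45 for AT5G02870 at 48 h and -0.078 for its late minus early effect. In shoots it gave 0.035, -0.060 and -0.14 for PGY1 at 1, 48 and 72 h, -0.14 for its late minus early effect, and -0.031 at 72 h and 0.13 in the mean for AT5G02870. For the root minus shoot level of AT5G02870 at 97 kPa it gave 0.25. With arrays centred on their medians, PGY1 had 0.17 at 48 h and -0.090 in the mean in roots, and AT5G02870 had 0.44 at 12 h, 0.079 at 48 h and 0.082 for late minus early in shoots. Late minus early in 97 kPa shoots became -0.32 for PGY1 and -0.29 for AT5G02870, the root minus shoot effect of PGY1 -0.17, and the levels 0.018 (97 kPa) and -0.16 (10 kPa) for PGY1 and -0.29 (97 kPa) for AT5G02870. With no filter or no variance trend, the calls of PGY1 in roots at 1 h (-0.54) and in the mean (-0.16), and of AT5G02870 in shoots at 12 h (0.42), were lost. The 3′ to 5′ ratio as covariate gave -0.17 for PGY1 in the root mean, 0.28 and 0.16 for AT5G02870 in shoots at 48 h and late minus early, and levels at 10 kPa of 0.26 for PGY1 and -0.21 for AT5G02870, both no longer called. Without the 4 arrays numbered apart, late minus early in roots was -0.065 for AT5G02870. Without 48 and 72 h, its level at 97 kPa was 0.35. The replicate block took the call of AT5G02870 in shoots at 12 h (0.42, limma adjusted p = 0.107) and changed no other member's call; same-numbered arrays share only a number, each array correlating best with its own number in 14 of 36 pairs. The block could not be fitted for late minus early at 97 kPa.

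Leaving out 1 array at a time, the lowest and highest values were, in roots, -0.56 and -0.50 (PGY1, 1 h), -0.045 and 0.11 (3 h), -0.19 and 0.081 (48 h), -0.21 and 0.040 (72 h), and -0.19 and -0.14 (mean). For AT5G02870 in roots they were -0.22 and 0.054 (72 h) and -0.048 and 0.088 (late minus early). For AT5G02870 in shoots they were -0.013 and 0.094 (3 h), 0.38 and 0.48 (12 h), -0.16 and 0.094 (48 h) and -0.12 and 0.011 (late minus early). The within-array difference ran from 0.15 to 0.20 in roots and from -0.12 to -0.078 in shoots. The count of ribosome list genes that fell in roots at 1 h was 24, 4 to 8 without 1 array, and 12 to 55 under the other alternatives. With 3 arrays a group, the SE of a single time was 0.12 to 0.15 in roots, so changes of that size were not detectable.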
